A study of Caenorhabditis elegans with 2 samples.

Results

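Among the candidate regions listed for SYD-9-GFP precipitation from late embryos of Caenorhabditis elegans, 440 were at divergent promoters on the autosomes. Divergent promoters are stretches of DNA that lie beside the starts of genes on both strands. These 440 regions were picked out of 13472 in the deposited list for both replicates pooled, of which 10928 were on the 5 autosomes. By its label that list holds peaks and background, as input for a filter on agreement between replicates. A listed region is thus a candidate, and its listing alone does not show enrichment. A region was taken when its summit, the base where the authors placed the top of the signal, lay within 500 bp of an annotated 5' end of protein-coding genes on each strand. Summits within 200 bp of a tRNA, snoRNA, snRNA, miRNA or rRNA gene were left out. The members were thus selected on measured summit positions, so that those positions are description and carry no test. The worms were hermaphrodites of strain OP488, which carries the allele unc-119(tm4063) III and the insertion wgIs488, a transgene that makes SYD-9 with GFP and FLAG fused to its C-terminus. They were synchronised by egg bleaching and collected whole 4 h later, the chromatin was sonicated, and an antibody against GFP was used. There was 1 group of 2 biological replicates, and both carry the same alleles, so every comparison is between regions. No precipitation from worms without the tag was analysed here, so recovery through SYD-9 and recovery shared with other tagged proteins cannot be told apart. A whole embryo mixes all its cell types, and the lists do not say in which cells a region gave signal.

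The worm genome is compact, and many neighbouring genes start back to back, so that a single stretch of open chromatin can serve transcription in both directions. Genes of basic cell upkeep, such as those for ribosomal proteins, chaperones and mitochondrial enzymes, are often arranged in this way. SYD-9, a zinc finger protein, is known from worm neurons, where it is needed for the normal distribution of synaptic vesicles. Most worm transcripts are trans-spliced, which removes their first bases, so annotated 5' ends can lie downstream of the base where transcription begins.

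Strength was read from the signal value, the score that the authors' peak caller gave each region, whose scale no source states. Strong regions were those in the set kept by the irreproducible discovery rate (IDR), a filter on agreement between replicates. That set was the 941 highest pooled scores. The sequences below show what strong and weak divergent promoters look like at the summit. They are the plus strand of ce11 (WBcel235, RefSeq), clipped to the stretch between both 5' ends and to at most 200 bases around the summit. Capitals mark matches, on either strand, to any of 12 named motifs that were searched. The first 6 are the strongest members, outside the chromosome that was left out of printing, whose summit lay between both 5' ends and whose stretch held no exon of a coding gene. They come from chrIV:390469-390559, chrIII:4171085-4171284, chrIV:4660477-4660676, chrIV:654818-655017, chrIII:5555014-5555213 and chrIV:1745662-1745861.
ears-2/uncp-18: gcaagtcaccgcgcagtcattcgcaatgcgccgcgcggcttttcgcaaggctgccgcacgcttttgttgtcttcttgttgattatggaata
rnf-121/C16C10.4: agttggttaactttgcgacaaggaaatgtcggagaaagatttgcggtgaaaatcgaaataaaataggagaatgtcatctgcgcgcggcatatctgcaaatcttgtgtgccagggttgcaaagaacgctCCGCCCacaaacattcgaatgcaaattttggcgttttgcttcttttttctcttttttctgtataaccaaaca
F29B9.11/jmjd-1.2: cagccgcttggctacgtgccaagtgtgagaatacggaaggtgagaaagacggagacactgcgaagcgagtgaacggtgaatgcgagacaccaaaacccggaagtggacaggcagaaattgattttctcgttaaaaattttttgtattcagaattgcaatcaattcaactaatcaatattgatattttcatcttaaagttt
rpl-15/K11H12.8: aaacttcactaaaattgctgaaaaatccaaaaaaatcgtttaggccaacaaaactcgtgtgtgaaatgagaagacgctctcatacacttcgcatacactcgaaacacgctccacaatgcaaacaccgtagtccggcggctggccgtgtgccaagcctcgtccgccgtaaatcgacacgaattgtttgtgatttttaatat
nmad-1/hach-1: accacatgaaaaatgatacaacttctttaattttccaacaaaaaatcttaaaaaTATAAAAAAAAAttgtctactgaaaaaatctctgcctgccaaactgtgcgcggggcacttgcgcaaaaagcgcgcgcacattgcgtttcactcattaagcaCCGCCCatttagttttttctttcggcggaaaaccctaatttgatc
Y41D4A.6/Y41D4A.4: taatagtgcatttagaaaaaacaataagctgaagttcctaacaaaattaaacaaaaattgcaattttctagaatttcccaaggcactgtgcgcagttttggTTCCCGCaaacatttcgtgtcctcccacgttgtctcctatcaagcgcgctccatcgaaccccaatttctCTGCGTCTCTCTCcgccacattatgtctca
The other 3 are among the weakest members, from chrIV:2495199-2495398, chrIII:7499603-7499737 and chrV:5239776-5239975.
ccdc-12/Y69A2AR.18: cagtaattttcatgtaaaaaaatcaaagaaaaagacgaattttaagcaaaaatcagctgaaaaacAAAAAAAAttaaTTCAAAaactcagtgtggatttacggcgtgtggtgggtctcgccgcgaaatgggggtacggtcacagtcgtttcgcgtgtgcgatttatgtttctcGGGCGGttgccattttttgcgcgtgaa
C07H6.9/sap-140: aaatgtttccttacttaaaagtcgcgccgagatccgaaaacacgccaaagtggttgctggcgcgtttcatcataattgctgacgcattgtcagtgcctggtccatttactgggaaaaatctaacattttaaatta
C52A10.3/B0238.15: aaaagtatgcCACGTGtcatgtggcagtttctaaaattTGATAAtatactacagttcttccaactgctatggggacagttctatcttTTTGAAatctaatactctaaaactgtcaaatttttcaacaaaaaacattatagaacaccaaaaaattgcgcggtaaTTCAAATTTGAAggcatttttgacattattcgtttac
The ears-2/uncp-18 stretch is 91 bases long and is all that separates the 2 genes' annotated starts. Within 50 bp of its summit 58.4% of bases were G or C. The share was 46.5% at rnf-121/C16C10.4, 43.6% at F29B9.11/jmjd-1.2, 53.5% at rpl-15/K11H12.8, 42.6% at nmad-1/hach-1 and 46.5% at Y41D4A.6/Y41D4A.4. In the weak stretches it was 44.6% at ccdc-12/Y69A2AR.18, 40.6% at C07H6.9/sap-140 and 29.7% at C52A10.3/B0238.15. A GC box was found at rnf-121/C16C10.4 and nmad-1/hach-1 and also at the weak ccdc-12/Y69A2AR.18, and an E2F site at Y41D4A.6/Y41D4A.4.

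The strongest divergent promoters included those of genes of protein synthesis, chromatin and transport. The highest signal value, 277.4, was at ears-2, for a glutamyl-tRNA synthetase, and uncp-18 on chromosome IV (390369 to 390600), with 131.3 in replicate 1 and 144.2 in replicate 2. Its summit lay 29 bp upstream of ears-2 and 63 bp upstream of uncp-18. Next was rnf-121, for a RING finger ubiquitin ligase, with C16C10.4 on chromosome III (4171060 to 4171287), at 265.1 pooled, 148.1 in replicate 1 and 115.6 in replicate 2. The histone pair his-67 and his-68 on chromosome I had a pooled value of 260.4, with 113.6 in replicate 1 and 148.4 in replicate 2. Histone genes exist in near-identical copies, so reads there may be split among copies, and how the authors placed such reads is not given in the sources used here. Both replicates put these 3 regions far above their median over the members with a region in that replicate. That median was 33.1 in replicate 1 and 32.3 in replicate 2.

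F29B9.11 and jmjd-1.2, a histone demethylase gene, shared a region on chromosome IV (4660347 to 4660806) with 249.0 pooled, 126.6 in replicate 1 and 119.8 in replicate 2. The region between vps-51, for a vesicle tethering subunit, and lin-35, the worm retinoblastoma homologue, had 241.8 pooled on chromosome I (5807242 to 5807701), with 120.2 in replicate 1 and 119.5 in replicate 2. The large-subunit ribosomal protein gene rpl-15 and K11H12.8 had 237.6 pooled, with 126.2 in replicate 1 and 115.4 in replicate 2. These 3 pairs thus differed little between the replicates. At 232.8 followed nmad-1, a homologue of DNA N6-methyladenine demethylases, with hach-1, an acyl-CoA hydrolase gene of valine breakdown. The ribosomal protein gene rps-19 and hsr-9, the worm homologue of the DNA damage protein 53BP1, had 215.1, and chaf-2, for a subunit of the chromatin assembly factor, had 214.6 with Y71G12B.30.

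Lower among the top 20 pairs, signal values ran down to 158.5 at Y57E12AL.6/Y57E12AL.1. They include spd-5, for the scaffold of the centrosome, with the nucleoporin gene npp-6 (205.9), and fib-1, for fibrillarin, with the small RNA pathway gene mut-15 (179.6). Also there were dnj-29, the Sec63 homologue, with the complex I gene ndua-2 (182.5), and sec-61.B, for a subunit of the protein channel of the endoplasmic reticulum, with trap-3 (164.1). The set further held dvc-1, a protease gene of DNA-protein crosslink repair, with the importin gene ima-1 (171.8), and set-16, for an H3K4 methyltransferase of the MLL type, with drr-2 (169.6). The spd-5/npp-6 summit lay in an intron, 223 bp inside spd-5, and that of Y57E12AL.6/Y57E12AL.1 in a 5' UTR. The other 18 of these summits lay between both 5' ends.

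**Figure D1:**
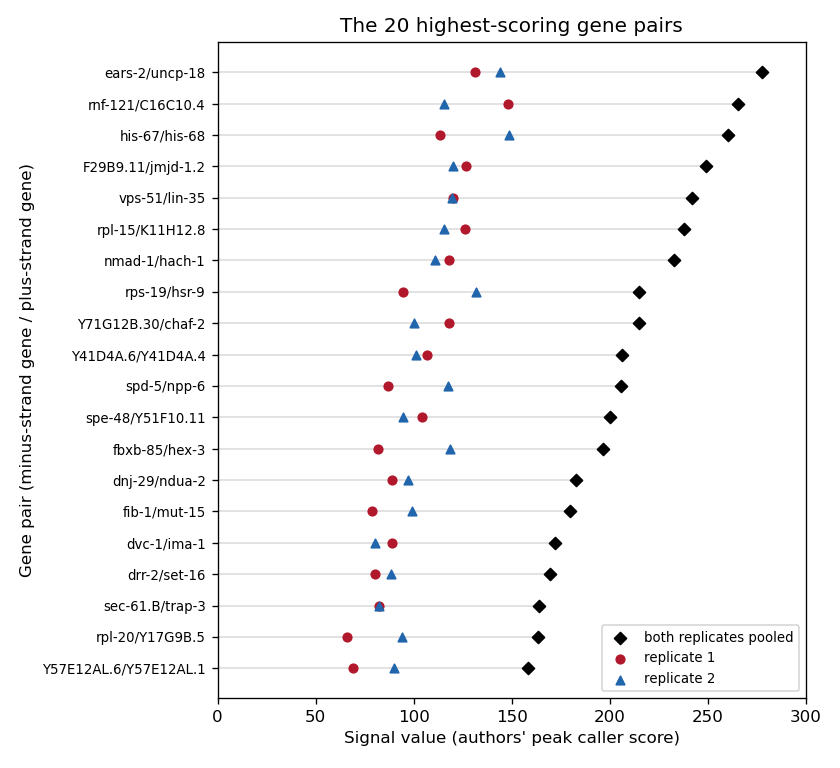
Signal value (x axis, authors' peak caller score, no unit) of the 20 highest-scoring gene pairs with a divergent promoter region, 1 row per pair, named minus-strand gene first. Circles are replicate 1, triangles replicate 2 and diamonds the pooled data. Single-replicate values run from 65.9 (rpl-20/Y17G9B.5, replicate 1) to 148.4 (his-67/his-68, replicate 2), and every pair has a region in both replicates.

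Of the 440 divergent promoter regions, 81 were in the IDR set, a share of 18.4% (exact 95% Clopper-Pearson interval 14.9% to 22.4%, for counting error only). The share was 7.28% of 2938 autosomal regions with 5' ends on a single strand within reach, called one-gene promoters here, and 3.36% of 7171 autosomal regions away from 5' ends and small RNA genes. Over the whole pooled list it was 6.98%. The intervals of the divergent and one-gene promoters do not overlap, since the second ran from 6.37% to 8.28%. Regions are not replicates, and some overlap, so the intervals can be too narrow. In each replicate's own list divergent regions again had a higher share than one-gene promoters and than all regions. In replicate 1, 22.5% of 391 divergent regions were among its 941 highest scores, against 9.53% of its one-gene promoters and 8.99% of all its regions. In replicate 2 it was 12.6% of 484, against 4.42% of its one-gene promoters and 4.61% of all its regions. The lists differ in length, so the shares of the 2 replicates are not on 1 scale. The 2 replicates contributed to the pooled list, so they are not a separate sample from it.

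The median pooled signal value was 53.9 at divergent promoters (quartiles 41.8 and 78.9, range 34.7 to 277.4), against 45.2 at one-gene promoters (quartiles 38.9 and 58.0) and 43.6 away from 5' ends. The highest single values lay elsewhere, with 477.8 at a one-gene promoter and 932.3 away from 5' ends. Autosomal regions near small RNA genes, which the rule left out, stood above the divergent promoters. Of these, 157 of 379 (41.4%) were in the IDR set, with a median of 77.2 and a highest value of 608.8. Among strong regions alone the medians were 128.3 at divergent promoters and 125.0 at one-gene promoters. Divergent promoters outside the IDR set had a median of 49.3 and reached 94.3. The format of the lists gives a further column as -log10 of a q-value, and its median was 1.87 in strong and 0.259 in weak divergent promoters. Its lowest value in weak ones was 0.0179. The pooled list includes background, so a weak region is a candidate and not a shown site of enrichment.

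**Figure D2:**
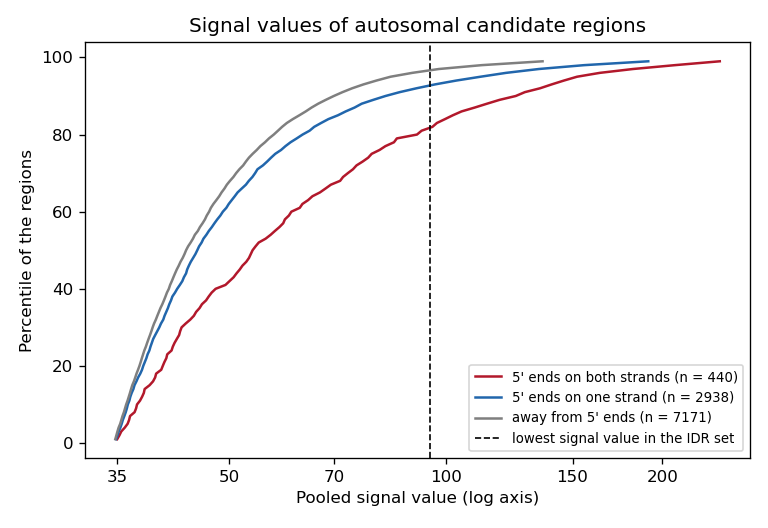
Percentile of the regions (y axis) at each pooled signal value (x axis, log scale, authors' score) for autosomal divergent promoters, one-gene promoters and regions away from 5' ends, with a dashed line at 95.2, the lowest value in the IDR set. The divergent promoters' curve lies to the right of both others over most of its length, and 81 of 440 regions stand beyond the line.

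At the edge of the IDR set the pooled values of strong and weak members were close. Just inside were lin-53, the RbAp48 homologue, with nra-2 at 96.3, the 14-3-3 gene par-5 with M117.3 at 95.9, and the histone genes his-61 and his-62 at 95.5. The his-61/his-62 region had no counterpart in replicate 1 and 72.6 in replicate 2, and it was the only strong member not found in both. Just outside were the RNA-binding protein gene rnp-6 with rde-10 at 94.3, tag-266/tag-267 at 94.0 and malt-1 with the homeobox gene ceh-38 at 92.9. The rnp-6/rde-10 region had 21.8 in replicate 1 and 64.7 in replicate 2, whereas tag-266/tag-267 had 64.4 and 24.2. The lowest members were ccdc-12/Y69A2AR.18 at 34.8, a second region of T10B5.3/knl-3 at 34.7 and tipn-1/ubxn-1 at 34.7. At the edge of the distance rule the farther 5' end lay 500, 499 and 498 bp away for C45G9.11/C45G9.2, rsr-1/sri-5 and simr-1/C06A5.3, with signal values of 39.6, 138.9 and 97.4. Just outside, at 501 bp, Y66D12A.21/spe-6, C41D11.3/eif-3.H and C33B4.4/C33B4.5 had 43.7, 40.7 and 39.8. The small RNA filter removed 7 regions that met the distance rule, 3 of them in the IDR set, with a median of 70.3.

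Replicate 1 had a region within 200 bp of the summit for 327 of the 440 members, replicate 2 for 381, and both for 277, or 63.0%. Only replicate 1 had one for 50 and only replicate 2 for 104, and 9 members had none in either. The replicate 2 list was the longer, with 20425 regions against 10468, and the depth behind either list is unknown. The share found in both was 98.8% (80 of 81) for strong members and 54.9% (197 of 359) for the others, against 98.1% of strong and 40.4% of weak one-gene promoters. Strong members were chosen by their pooled score, which draws on both replicates, so their high share is no separate result.

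Where both replicates had a region, Spearman's rho between their signal values was 0.69 over 277 members, 0.60 over the 80 strong ones and 0.35 over the 197 weak ones. Over 1309 one-gene promoters it was 0.55. These are correlations across regions, which share the 2 libraries, and pooling strong with weak members raises the first. Replicate 1 was higher at 142 members and replicate 2 at 135. Strong members had medians of 65.5 in replicate 1 and 66.0 in replicate 2, and weak ones 29.9 and 29.8. In replicate 1, 14 members shared their region with another member, and 18 did in replicate 2.

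Some strong pairs ranked differently in the replicates. F57C2.5/spat-1 had 96.9 in replicate 1 and 44.2 in replicate 2, which put it at rank 11 and rank 79 among strong members. The region of hsp-6, for the mitochondrial Hsp70, and C37H5.5 had 72.1 and 45.6, at ranks 25 and 76. In the other direction, fbxb-85 with the hexosaminidase gene hex-3 had 81.9 and 118.5, at ranks 17 and 6, and rps-19/hsr-9 stood at ranks 12 and 3. With 1 library per replicate, the error of a single region's value cannot be estimated from these lists.

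**Figure D3:**
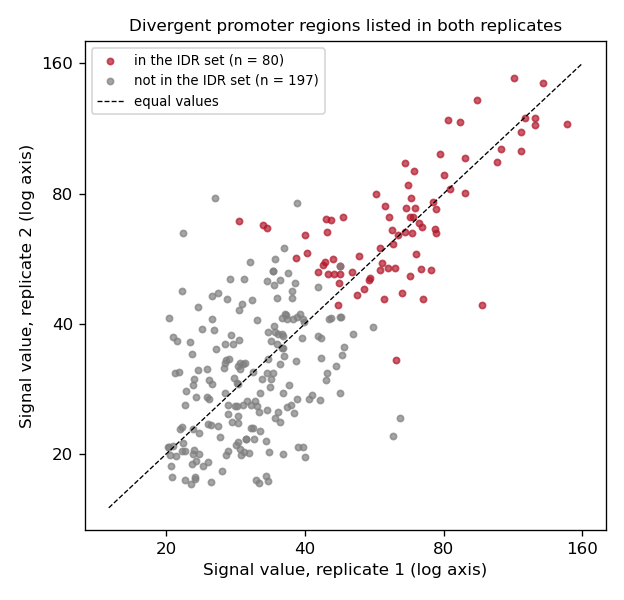
Signal value of each divergent promoter region in replicate 1 (x axis) and replicate 2 (y axis), both log axes and authors' scores, for the 277 regions listed in both, with 80 in the IDR set in red and 197 others in grey. The dashed line marks equal values; the strong regions lie along it, and the weak ones form a wide cloud.

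Most strong summits sat in the DNA between the gene starts. The summit lay between both 5' ends at 77 of 81 strong members (95.1%) and at 277 of 359 weak ones (77.2%). The 4 strong exceptions were spd-5/npp-6, Y57E12AL.6/Y57E12AL.1, F40F11.3/mig-38 in an intron and rpl-12/lin-54 in a 5' UTR, the last 29 bp inside rpl-12. The summit base was intergenic in 74 strong members, in a 5' UTR in 3, in an intron in 4 and in a coding exon in none. Of the weak members 257 were intergenic, 39 in a 5' UTR, 27 in an intron and 36 in a coding exon. In 9 members the 5' ends overlapped, all of them weak, with the highest value, 67.7, at the calponin-like muscle gene clik-1 and T25F10.1.

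The distance between the starts was a little wider at strong members, with a median of 407 bp (quartiles 306 and 513) against 345 bp (237 and 544.5) at weak ones. That difference of 62 bp did not hold when only members with the summit between both ends were taken, where it was -5 bp. Over all members Spearman's rho between signal value and this distance was 0.095. By distance, 9 of 63 members (14.3%) with starts 1 to 200 bp apart were strong, 31 of 173 (17.9%) at 201 to 400 bp, 29 of 119 (24.4%) at 401 to 600 bp and 12 of 76 (15.8%) at 601 to 1000 bp. The intervals of these 4 shares overlap, the widest of them 6.75% to 25.4% for the closest pairs. The nearer start was a median of 135 bp from the summit at strong members and 120 bp at weak ones, and the farther 276 bp and 292 bp.

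Seen from the genome, the autosomes hold 1665 annotated pairs of coding genes that start back to back within 1000 bp. Of these, 383 (23.0%) had a divergent promoter region between or beside their starts, and 77 (4.63%) had a strong one. A region was found at 59 of 242 pairs (24.4%) up to 200 bp apart, 153 of 451 (33.9%) at 201 to 400 bp, 104 of 379 (27.4%) at 401 to 600 bp and 67 of 593 (11.3%) at 601 to 1000 bp. The last share is bound by the rule, since no summit can lie within 500 bp of 2 starts much farther apart than that unless it lies near their middle. By chromosome, 20 of 78 members on IV (25.6%), 17 of 85 on V, 20 of 108 on I (18.5%), 15 of 93 on III (16.1%) and 9 of 76 on II (11.8%) were strong. One-gene promoters ranged from 6.27% on V to 8.63% on III, over 533 to 634 regions a chromosome, and the differences between chromosomes were not tested.

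Strong divergent promoters had a narrow G and C rich centre in flanks rich in A and T. Within 50 bp of the summit the median share of G and C was 49.5% at strong members (quartiles 44.6% and 53.5%), against 40.6% at weak members (33.2% and 46.5%). Means were 48.4% at strong and 40.1% at weak divergent promoters, against 49.8% at strong and 43.3% at weak one-gene promoters. At 100 to 150 bp from the summit the mean had fallen to 31.6% at strong and 33.8% at weak divergent promoters, while one-gene promoters kept 39.8% and 39.5% there. The dip was thus found at strong and weak divergent promoters, which differed mainly at the centre.

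The share of strong regions followed this composition. It was 4 of 114 (3.51%) among members with under 35% G and C, 21 of 154 (13.6%) from 35% to 45%, 44 of 141 (31.2%) from 45% to 55% and 12 of 31 (38.7%) above. In one-gene promoters the same bins held 1.62%, 4.05%, 10.7% and 15.3%, so that the divergent share was the higher in each, with overlapping intervals only in the lowest and none in the others. Spearman's rho between signal value and G and C share was 0.39 over the 440 members and 0.32 over the one-gene promoters. How far base composition affected sonication, amplification or mapping was not tested.

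**Figure D4:**
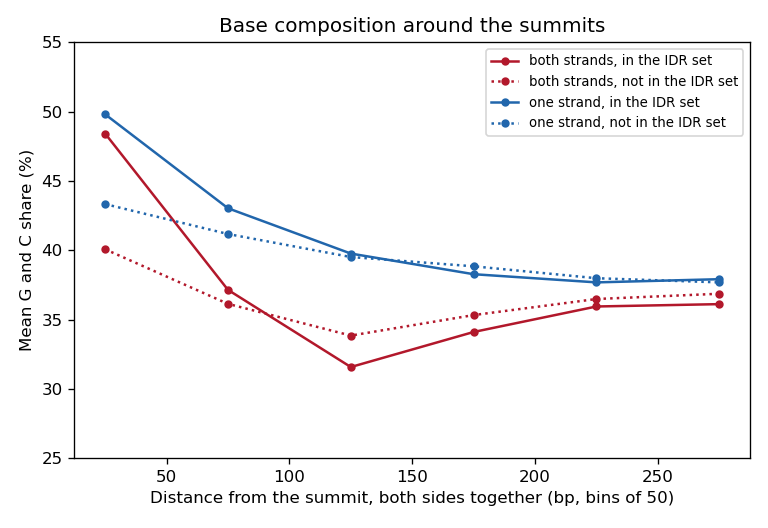
Mean share of G and C (y axis, percent) by distance from the summit (x axis, bp, bins of 50, both sides together) for divergent (red) and one-gene (blue) promoters, in the IDR set (solid) or not (dotted). Strong divergent promoters drop from 48.4% at the centre to 31.6% at 100 to 150 bp, and one-gene promoters stay above 37% throughout.

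Among the 12 motifs searched within 100 bp of the summit on both strands, the GC box GGGCGG differed most in share between strong and weak divergent promoters. It was found in 22 of 81 strong members (27.2%, interval 17.9% to 38.2%) and 35 of 359 weak ones (9.75%, 6.89% to 13.3%), against 17.3% of strong one-gene promoters. All nuclear regions of the pooled list held it in 8.50% of windows, and windows of that length at all autosomal gene 5' ends in 5.86%. E2F sites, TTCCCGC or TTGGCGC, were in 16.0% of strong and 8.36% of weak members, with overlapping intervals, and in 3.80% of windows at gene 5' ends. The heat shock element GAANNTTC was in 19.8% of strong and 13.4% of weak members and in 13.2% at gene 5' ends.

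The GAGA repeat GAGAGA showed the contrast with other promoters. It was in 22.2% of strong and 21.4% of weak divergent promoters, but in 43.0% of strong one-gene promoters (interval 36.3% to 49.9%) and 21.5% of weak ones. The GATA site TGATAA was in 2 of 81 strong members (2.47%) against 11.1% of weak ones, with overlapping intervals, and in 23.0% at gene 5' ends. One-gene promoters went the same way, with 6.54% of strong and 13.25% of weak ones. TATAAA was in 14.8% of strong and 20.6% of weak members, and a run of T, TTTTTTTT, in 17.3% and 20.9%, while gene 5' ends held them in 30.7% and 26.5% of windows. The word CTGCGTC was in 11.1% of strong and 6.69% of weak members, and in 17.3% of strong and 6.24% of weak one-gene promoters. It can overlap the GAGA repeat read on the other strand, as it does in the Y41D4A.6/Y41D4A.4 stretch. The CHR element TTTGAA was in 31 of 81 strong and 145 of 359 weak members. The E box CACGTG and the FOXO site GTAAACA were each in 2 strong members, and ACTACAA in 1. The motifs differ in their own G and C share, so these counts move with base composition. A match is a description and not a binding site.

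The 440 regions had 835 coding genes within reach, 4.84% of the 17242 on the autosomes, and 161 of them were at strong regions. Several gene families of basic cell upkeep had higher shares. Of 82 cytosolic ribosomal protein genes 23 were at a divergent promoter region (28.0%), of 65 respiratory chain and ATP synthase genes 18 (27.7%), of 65 heat shock and folding genes 16 (24.6%) and of 33 proteasome genes 10 (30.3%). Such genes are also often paired, so a fairer measure is the share among genes of annotated back-to-back pairs, which was 23.1% over all 3330 of them at any member and 4.69% at a strong one. By this measure 16 of 26 chromatin regulators (61.5%) had a region, 18 of 34 respiratory chain genes (52.9%), 18 of 36 cell cycle genes, 14 of 29 heat shock genes (48.3%) and 23 of 49 ribosomal protein genes (46.9%). Complex I symbols were added to the respiratory chain list after values were seen, so both of its shares are description only. Core histones, with 17 of 61 (27.9%), were near the background. Below it were ubiquitin system genes with 10 of 59 (16.9%), DNA repair genes with 2 of 14 (14.3%), nuclear hormone receptor genes with 2 of 18 (11.1%) and chemosensory receptor genes with 10 of 128 (7.81%). The DNA repair and nuclear hormone receptor shares rest on 2 genes each, too few to place them apart from the background. Both of the nuclear hormone receptor genes were at strong regions, so by that measure their 11.1% was above the 4.69% over all such genes.

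**Figure D5:**
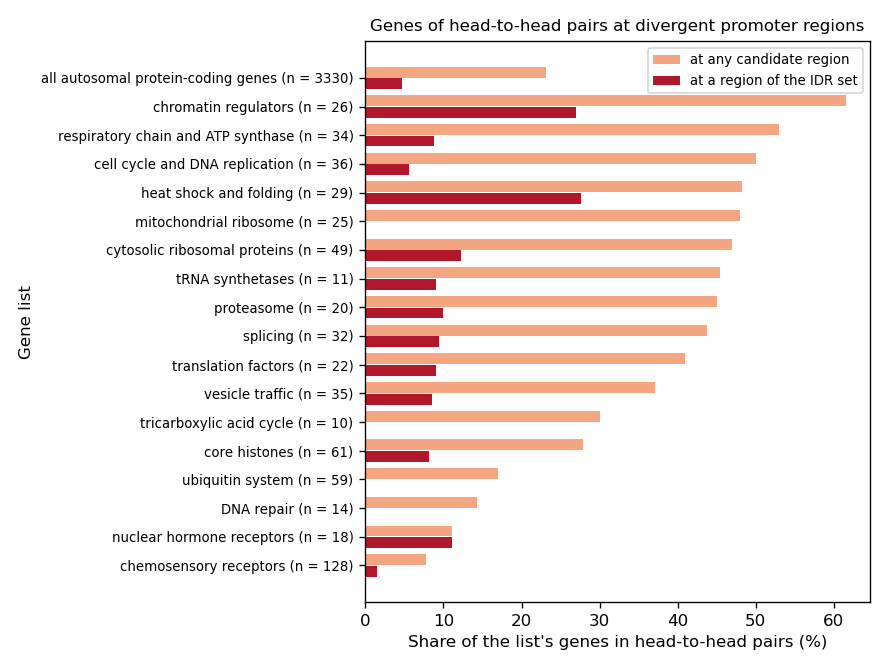
Share (x axis, percent) of each list's genes in annotated back-to-back pairs that had a divergent promoter region, pale bars for any region and dark bars for a region of the IDR set, with n the number of such genes; lists with at least 10 are drawn, under a top row for all genes. Chromatin regulators have the longest pale bar (61.5%), and heat shock and folding genes the longest dark one (27.6%).

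Among lists with at least 10 genes in annotated back-to-back pairs, chaperone and chromatin genes had the highest shares at a strong region. For heat shock and folding genes it was 8 of 29 (27.6%), and for chromatin regulators 7 of 26 (26.9%). Ribosomal protein genes came next, with 6 of 49 (12.2%), and all such genes had 4.69%. These shares rest on few genes, and no interval or test was computed for them. Some genes share their region with a gene of another list, as dnj-29 does with ndua-2. The region counted for lin-54 had its summit 29 bp inside rpl-12 and 422 bp upstream of lin-54. The chaperone genes at strong regions were led by dnj-29 (182.5), by cct-7, for a subunit of the cytosolic chaperonin (154.8, with 67.9 in replicate 1 and 78.3 in replicate 2), and by dnj-28, for a J-domain protein (136.8, with 57.1 and 79.8). The median over the 16 chaperone genes, each at its highest region, was 100.4, against 55.3 over all 835 genes. Among chromatin regulators jmjd-1.2, lin-35 and set-16 led, and the median over 17 genes was 83.0.

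Of the 23 ribosomal protein genes 6 were at strong regions, with rpl-15, rps-19 and rpl-20 (163.5) highest and a median of 72.1 over the 23. In the mitochondrion, ndua-2, cox-6B, for a cytochrome oxidase subunit (148.1, with 69.5 in replicate 1 and 74.2 in replicate 2), and atp-1, for a subunit of the ATP synthase (101.3), were strong, and the other 15 respiratory genes were not. The mitochondrial ribosome had 15 of its 71 genes at divergent promoters and none at a strong region, with the highest, mrps-35, at 91.2 (36.8 and 52.4). Only 25 of its genes are in annotated back-to-back pairs. The 4.69% at a strong region over all such genes amounts to few among 25, so this absence does not set the list apart. Mitochondrial import and dynamics genes had 2 of 21 at a region, tin-9.2 (57.8) and chch-3 (49.3), and the tricarboxylic acid cycle 3 of 21, with mev-1 highest at 80.8.

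Over all 835 genes at members 19.3% were at a strong region, near the 22.2% of translation factor, 21.4% of splicing and 23.1% of vesicle traffic genes at members. Among the lists for gene expression, eif-3.D, for an initiation factor subunit (146.8, with 76.7 in replicate 1 and 66.2 in replicate 2), and eef-1G, for elongation factor subunit gamma (110.3), were the strong members of 9 translation factor genes, and eef-2, for the translocation factor, followed at 91.2. Of 14 splicing genes 3 were strong, snr-1, for an Sm core protein (152.2, with 66.8 and 83.8), and the SR protein genes rsp-2 and rsp-1, which share a region (126.3). Of 5 tRNA synthetase genes ears-2 alone was strong, and tars-1, for the threonine enzyme, had 77.3. In the proteasome list rpn-3 (128.3) and rpn-7 (109.8), for lid subunits, were strong, and rpn-9 had 73.9. The vesicle traffic list had 13 of 103 genes at a region, with vps-51, sec-61.B and the small GTPase gene arf-6 (105.1) strong. The ubiquitin list had 10 of 203 at a region (4.93%, against 4.84% over all genes) and none at a strong one (against 0.934% over all genes). The F-box gene fbxa-153 was its highest at 84.5. The cell cycle list had 20 of 94 genes at a region, led by spd-5, the kinetochore gene knl-3 (125.6) and the kinase gene cdk-9 (111.4). Lists were filled by gene symbol or symbol pattern, so cdk-9 is there by its name, and its role was not checked. DNA repair genes had 2 of 28, polh-1 (59.7) and rad-54.L (37.96).

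Few genes of the neuron and muscle lists were at a divergent promoter, in lists so short that the 4.84% over all genes amounts to only a few. Synaptic vesicle and active zone genes had 0 of 27 at a divergent promoter, and neuronal transcription factors 0 of 38. Axon guidance genes had 1 of 32, unc-40, for the netrin receptor, at 63.0 (34.9 in replicate 1 and 24.9 in replicate 2), and body wall muscle genes 2 of 27, clik-1 (67.7) and the troponin C gene pat-10 (36.3). The muscle share, 7.41%, was above that over all genes and the axon guidance share, 3.13%, below it. These genes are seldom paired back to back, with 1, 0, 1 and 1 of them in annotated pairs of that kind, so the counts say little about signal at such genes elsewhere. Nuclear hormone receptor genes had 2 of 247 at a region, both strong, nhr-142 (152.7) and nhr-47 (101.5). Chemosensory receptor genes had 10 of 1275, with 2 at strong regions, sri-5 (138.9, shared with rsr-1) and srh-16 (120.2).

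Some pairs joined genes of 1 list and others genes of different lists. At 42 of 440 members (9.55%) both nearest genes were on a list, and at 19 of these both were on the same list. For strong members the counts were 8 of 81 (9.88%) and 3, and for weak ones 34 of 359 (9.47%) and 16. The 3 matched strong pairs were his-67/his-68, rsp-2/rsp-1 and his-61/his-62, and the next were the stress-induced small heat shock genes hsp-16.2 and hsp-16.41 (78.4, with 33.0 in replicate 1 and 50.2 in replicate 2), the ribosomal protein genes rps-10 and rpl-24.1 (77.9, with 36.4 and 41.9) and the histone genes his-60 and his-59 (74.1, with 21.6 and 47.7). Mixed strong pairs included vps-51/lin-35, dnj-29/ndua-2, hsp-110/rpn-3 (128.3) and rpl-12/lin-54 (108.6), the last joining a ribosomal protein gene to a subunit of the DREAM repressor complex. At 40 strong members (49.4%) at least 1 gene was on a list, and at 139 weak ones (38.7%).

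The 440 regions fell at 413 distinct pairs, and 27 pairs had 2 regions each. Only F57C2.5/spat-1, the second for a PLK-1 activator, had 2 strong ones, at 141.5 and 96.7. Elsewhere a strong region stood beside a weak one, as at rps-19/hsr-9 (215.1 and 59.8), fib-1/mut-15 (179.6 and 53.6) and T10B5.4/cct-7 (154.8 and 41.7). The weak neighbour of T10B5.3/knl-3 took its replicate 2 value of 69.6 from the same replicate region as the strong one. In all, 52 members overlapped another, and merging them left 414. The widths were uniform, at 460 bp with the summit in the middle, in 434 members, and the 6 narrower ones were all strong.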

How the data were processed

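The deposited lists are narrowPeak files in ce11 for each replicate, for both pooled and for the IDR set. The authors' deposited signal value per region and −log10 of a q-value were used as given, without further scaling. The peak caller, its version, the control and the IDR threshold are not given in the sources used here, and the lists hold no read counts, so depth is unknown. Lists in the other build were not used here. Annotation was Ensembl release 115 and sequence RefSeq, both WBcel235. All 5' ends of annotated transcripts of protein-coding genes were used. Counts, medians and exact intervals were computed with python 3.11.15, pandas 2.3.3, numpy 2.4.6 and scipy 1.17.1, and the rule was tested on simulated regions. No test was run, because there is 1 group and measured summits chose the members. Members and lists were chosen with earlier results of these data known, and gene symbols of complex I were added to a list after values were seen. Named pairs are the 20 highest, 3 on each side of the IDR edge, the 3 lowest, up to 3 genes per list, up to 6 pairs with both genes on 1 list, pairs with most regions, and the 3 with the largest rank ratio for each replicate. Other names, such as the mixed pairs and the strong summits outside the gap, were chosen after their values were seen. Alternatives covered the distances, 5' ends, windows, overlaps, the meaning of strong, and each replicate alone.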

Additional observations from a re-analysis of the deposited data

How the results depend on the processing

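Of 62 alternative values, 45 kept their direction and stayed within a tolerance, 16 moved beyond it and 1 reversed. The tolerance was 1.5 times for a count, the exact 95% interval for the share, and the interval of the medians for the other values. It is wide for the distance between starts, where 44 bp with 250 bp as the distance and 86 bp in the upper part of the IDR set, against 62 bp, fell within it. With 250 bp as the distance to 5' ends there were 175 divergent promoter regions, and with 1000 bp 808, against 440. On each replicate's own list the count was 391 to 484, the share among the 941 highest scores 12.6% to 22.5% (18.4% pooled), the median signal value 27.4 to 30.6 and its difference from one-gene promoters 4.53 to 5.12, since these lists score lower than the pooled one. Replicate 2 alone gave the lower share and replicate 1 alone the higher. The 941 highest scores were 4.61% of the longer replicate 2 list and 8.99% of the replicate 1 list, so these shares are not on 1 scale. The upper 470 of the IDR set held 8.41% of members. With the summit between both 5' ends the median signal value was 57.3 (53.9) and its difference from one-gene promoters 12.1 (8.73). The difference in distance between starts, strong minus weak, reversed to -5 bp there, and the cause was not tested. It was 58.5 to 74 bp on the replicates alone. The difference in G and C share, strong minus weak, was 8.91 percentage points, with 6.93 at 1000 bp, in the upper part of the IDR set and on each replicate alone, and 4.98 with 100 bp on each side, a window that takes in more of the flanks. With summits within 100 bp or 500 bp, 240 or 306 members were found in both replicates, against 277.

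No paired analysis was possible because the series has 1 group. Limits are the unknown depth, the unstated scale of the scores, the lack of an untagged control, the 2 libraries and the use of annotated 5' ends in place of mapped transcription starts.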
